A study of Homo sapiens with 9 samples.

Results

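WNT ligands, their Frizzled and LRP receptors, their inhibitors and a few of their intracellular effectors were followed through 3 related human mammary epithelial cell lines. The members were the 45 of 62666 genes in the deposited table whose symbols name a WNT ligand (19), a Frizzled receptor (FZD, 10), the co-receptors LRP5 and LRP6, a secreted inhibitor of the SFRP or DKK family (8), the receptor ligases RNF43 and ZNRF3, the scaffolds AXIN1 and AXIN2, or the nuclear factors LEF1 and TCF7. The rule is on the gene name alone. The study asked how expression changes from one stage of breast cancer to the next. MCF10A is a spontaneously immortalised, non-tumorigenic breast epithelial line. MCF10AT1 is a derivative of MCF10A that carries an activated HRAS gene, and MCF10Ca1a is a malignant line obtained from that lineage after growth as xenografts. Each stage is therefore 1 cell line, and a difference between stages is a difference between these lines. All 3 lines were kept in medium with insulin, epidermal growth factor, hydrocortisone and cholera toxin. MCF10A and MCF10Ca1a received 5% horse serum and MCF10AT1 received 2.5%, so serum and line cannot be told apart in any comparison with MCF10AT1. Polyadenylated RNA was sequenced from 3 replicate libraries per line, 9 in all. The labels do not say whether the replicates came from separate cultures, so p-values measure the spread between these libraries, which may be technical.

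WNT proteins are secreted, lipid-modified ligands that bind Frizzled receptors on the cell surface. Together with LRP5 or LRP6, a ligand-bound Frizzled stops the AXIN and APC complex from marking beta-catenin for destruction, and beta-catenin then works with TCF and LEF factors in the nucleus. Other ligand and receptor pairs, WNT5A the best known among them, act without beta-catenin on cell polarity and movement. SFRP proteins bind WNT ligands outside the cell, DKK proteins block the LRP co-receptors, and RNF43 and ZNRF3 remove Frizzled from the membrane. In the mammary gland these signals are known for their part in duct growth and in the upkeep of basal progenitor cells.

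Library totals lay between 32.9 and 69.5 M estimated counts. Levels are given as CPM, the counts relative to the TMM-scaled library total, and levels of different genes are compared only as TPM, which also corrects for transcript length. All 3 lines carried epithelial markers, as their labels call for. The summed level of 6 luminal or simple-epithelial keratins and junction genes ranged from 647 to 789 CPM in MCF10A, from 1918 to 2106 CPM in MCF10AT1 and from 2659 to 2814 CPM in MCF10Ca1a. The summed level of 7 basal markers ranged from 8344 to 10641, from 7838 to 8474 and from 7661 to 8125 CPM. Single basal markers moved both ways under this sum: against MCF10A, 3 of the 7 were called higher in MCF10Ca1a and 4 lower. KRT14 went from 316 ± 29 CPM in MCF10A to 65.7 ± 2.6 in MCF10AT1 and 6.26 ± 0.47 in MCF10Ca1a, and KRT17 from 895 ± 62 to 1095 ± 50 and 2268 ± 74 CPM (SD, n = 3). Of the 6 luminal or simple-epithelial markers, 5 were called higher in MCF10AT1 than in MCF10A, and CDH1 was not called. From MCF10AT1 to MCF10Ca1a, 4 were called higher, among them CDH1 (145 to 749 CPM), and 1, KRT8, lower. Among markers of other cell types, CD3E and LEP had 0 counts in all 9 libraries, and CDH5, VWF, COL3A1 and LUM were near 0. The summed endothelial (5), leukocyte (5) and adipocyte (4) markers reached 42.2 to 49.5, 43.1 to 46.7 and 8.57 to 9.04 CPM in MCF10Ca1a, against at most 4.83, 27.3 and 0.387 CPM in the other lines, and these sums were mostly PECAM1, CD68 and PLIN1. The 7 fibroblast markers summed to 13.2 to 14.2 CPM in MCF10A, 33.8 to 35.0 CPM in MCF10AT1 and 5.34 to 5.95 CPM in MCF10Ca1a; in MCF10AT1 this was mostly DCN (30.7 CPM, from 4.41 in MCF10A), while COL1A1 was lower there (3.31 CPM, from 9.16). These sums differed between the lines beside the members described here, and their part in the results was not tested. The RNA came from whole cultures, so fewer expressing cells and less RNA per cell cannot be told apart.

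Of the 45 members, 28 had enough counts to be tested. The other 17 were 10 ligands (WNT1, WNT2, WNT3A, WNT4, WNT6, WNT8A, WNT8B, WNT9B, WNT11 and WNT16), FZD9, 5 inhibitors (SFRP2, SFRP4, SFRP5, DKK2 and DKK4) and AXIN2. WNT1, WNT6, SFRP2 and SFRP5 had 0 counts in all 9 libraries, and none of the other untested members exceeded 24 counts in any library. A mean of at least 1 TPM was reached by 18 members in MCF10A, 22 in MCF10AT1 and 19 in MCF10Ca1a.

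In MCF10AT1 against MCF10A, 18 of the 28 tested members were called at an adjusted p under 0.05 (quasi-likelihood test of edgeR, Benjamini-Hochberg adjusted across 17910 genes). Of all genes tested, 61.6% were called in that comparison, so the members' share of 64.3% lay near the background. The 18 were 11 higher and 7 lower members, against 29.8% and 31.8% of all genes. CPM ranges of these lines did not overlap for 19 members, against 65.4%. At 2-fold or more, 7 members were higher (WNT7B, WNT9A, FZD4, FZD7, FZD10, DKK1 and TCF7) and 1 was lower (FZD6), against 9.36% and 8.64% of all genes tested. More members were called higher than lower in 17 of 21 alternative settings as well. The split was even in 3, among them limma on log2(TPM + 1) with 7 and 7 and edgeR without a filter on low counts with 10 and 10 of 41 members tested, and 1 called more lower.

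In MCF10Ca1a against MCF10A, 26 members were called, against 80.9% of all genes tested; 13 were higher and 13 lower, against 39% and 41.9%. Their CPM ranges did not overlap for 26 members, against 81.5%. A 2-fold change or more was seen in 19 members (8 up, 11 down), where 42.9% of all genes tested showed one. In MCF10Ca1a against MCF10AT1, 24 members were called, against 78.4% of all genes tested; 10 were higher and 14 lower, against 38% and 40.3%. Ranges did not overlap for 24 members, against 81.9%. There 13 changed at least 2-fold, 4 higher and 9 lower, against a background of 37.7%. The median size of the log2 fold change of the tested members was 0.49, 1.62 and 0.95 in the 3 comparisons in this order, beside 0.38, 0.84 and 0.76 over all genes tested. These comparisons share libraries, since each line enters 2 of them, and are given side by side for each member.

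**Figure D1:**
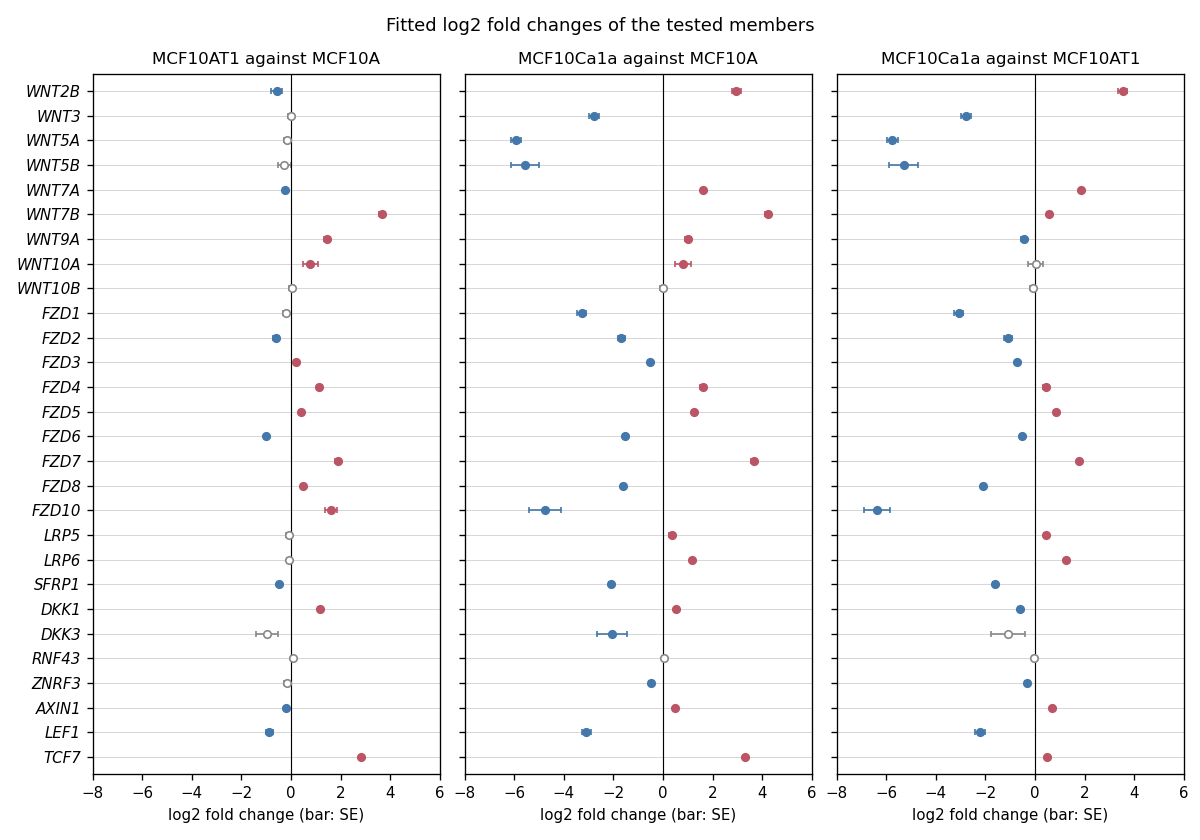
Fitted log2 fold changes (x axis) of the 28 tested members (y axis, ordered by role) in the 3 comparisons, with bars for the standard error. Red points are members called higher, blue points members called lower and open grey points members not called at an adjusted p of 0.05; WNT5A, WNT5B and FZD10 lie farthest to the left in the MCF10Ca1a comparisons.

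The 4 upstream windows printed here stand for genes whose changes are described in the following paragraphs. DKK1 was the most abundant member in MCF10AT1 and MCF10Ca1a and the sole member, of the 30 with a window, that held the TCF/LEF core motif there. FZD4 and FZD8 are receptors that moved in opposite directions in MCF10Ca1a. The WNT2B window precedes the start of a transcript that gave a smaller share of the gene's counts in MCF10Ca1a than in the other lines. Each window is the 250 bases before a RefSeq start site (GRCh38.p14), read 5′ to 3′ on the gene's strand. Capitals mark matches to CTTTGA, the core letters bound by TCF and LEF factors (or its reverse complement), and to TATAAA, the TATA box letters.
DKK1 upstream window, plus strand of chr10:52314031-52314280: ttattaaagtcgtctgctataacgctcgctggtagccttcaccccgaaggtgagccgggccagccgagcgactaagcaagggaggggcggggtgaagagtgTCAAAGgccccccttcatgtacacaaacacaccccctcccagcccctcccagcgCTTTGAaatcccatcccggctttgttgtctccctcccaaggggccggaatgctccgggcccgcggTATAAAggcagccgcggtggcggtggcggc
FZD4 upstream window, minus strand of chr11:86955396-86955645: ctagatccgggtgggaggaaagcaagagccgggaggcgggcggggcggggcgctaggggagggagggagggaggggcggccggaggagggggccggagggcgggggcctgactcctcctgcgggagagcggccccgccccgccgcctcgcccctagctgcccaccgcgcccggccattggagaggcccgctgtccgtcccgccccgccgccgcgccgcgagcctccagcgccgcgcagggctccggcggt
FZD8 upstream window, minus strand of chr10:35642297-35642546: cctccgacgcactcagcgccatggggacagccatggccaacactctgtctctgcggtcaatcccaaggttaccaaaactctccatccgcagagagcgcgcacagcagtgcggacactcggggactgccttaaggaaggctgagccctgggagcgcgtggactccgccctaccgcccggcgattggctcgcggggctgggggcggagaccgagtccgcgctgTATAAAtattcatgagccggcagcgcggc
WNT2B upstream window, plus strand of chr1:112466291-112466540: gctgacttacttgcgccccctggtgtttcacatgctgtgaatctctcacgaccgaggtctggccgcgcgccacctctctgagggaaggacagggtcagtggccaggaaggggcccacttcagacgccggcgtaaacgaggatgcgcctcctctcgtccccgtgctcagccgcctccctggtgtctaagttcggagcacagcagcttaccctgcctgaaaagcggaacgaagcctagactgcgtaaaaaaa
Both strands were searched, and neither motif can overlap the other. In DKK1 the 2 matches to CTTTGA began 149 and 95 bases before the start, and the TATAAA match began 30 bases before it. The TATAAA match of FZD8 began 29 bases before its start. RefSeq gave a window for 30 of the 45 members, 35 windows in all. CTTTGA occurred in 1 of these 35 and in 11.2% of 35114 windows of the same length over all genes, and TATAAA occurred in 4 (DKK1, FZD8, TCF7 and WNT5B) and in 10.7%. A match describes the letters and is not evidence of binding.

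Among the ligands, WNT5A was far lower and WNT7A and WNT7B were higher in MCF10Ca1a than in MCF10A. WNT5A, the main ligand of the beta-catenin-independent branch, was 61.2-fold lower in MCF10Ca1a than in MCF10A. WNT7B, a beta-catenin-linked epithelial ligand, was 12.6-fold higher in MCF10AT1 and 18.8-fold higher in MCF10Ca1a than in MCF10A. WNT7A, its close relative, was 3.06-fold higher in MCF10Ca1a than in MCF10A, and WNT2B was 7.76-fold higher. Of the 9 ligands tested, 3 were called higher and 2 lower in MCF10AT1 (33.3% and 22.2%), and 5 higher and 3 lower in MCF10Ca1a (55.6% and 33.3%), each against MCF10A. Of all genes tested, 29.8% and 31.8% were higher and lower in MCF10AT1 and 39% and 41.9% in MCF10Ca1a.

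WNT5A (chr3:55465715-55490539, minus strand, GENCODE 29 on GRCh38) stood at 10.5, 9.30 and 8.60 CPM in the MCF10A libraries, at 8.04, 8.72 and 8.28 CPM in the MCF10AT1 libraries and at 0.0838, 0.268 and 0.113 CPM in the MCF10Ca1a libraries. All 3 MCF10Ca1a libraries lay far under the lowest of the other 6, and those 3 libraries held 3, 9 and 4 counts. The log2 fold change was -5.93 ± 0.21 (SE) against MCF10A and -5.75 ± 0.21 against MCF10AT1, with edgeR adjusted p = 6.0e-12 and 1.4e-11. MCF10A and MCF10AT1 overlapped, and their difference of -0.18 ± 0.11 was not called (edgeR adjusted p = 0.154). It was called in 3 of 21 alternatives, those on the length-scaled counts and on log2(TPM + 1), with adjusted p between 0.0087 and 1.0 over all of them.

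WNT5B, the paralog of WNT5A, showed the same order at a lower level. Its MCF10A libraries held 39, 36 and 35 counts, its MCF10AT1 libraries 30, 35 and 25, and its MCF10Ca1a libraries 1, 0 and 0. The ratio of MCF10A to MCF10Ca1a was 58.1 per unit of depth, with a 95% exact interval of 10.2 to 2314 that covers counting error only. WNT3, a beta-catenin-linked ligand, stood at 2.09, 2.12 and 2.31 CPM in MCF10A, 2.29, 1.89 and 2.34 CPM in MCF10AT1 and 0.279, 0.357 and 0.310 CPM in MCF10Ca1a. Its MCF10Ca1a libraries were 6.86-fold below MCF10A (log2 fold change -2.78 ± 0.19, edgeR adjusted p = 6.7e-09), while MCF10A and MCF10AT1 had equal means of 2.17 CPM. Both genes fell outside the rule for genes described library by library and were added after their values were seen.

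WNT7B (chr22:45920362-45977129, minus strand) stood at 0.795, 0.618 and 0.745 CPM in MCF10A, at 8.62, 8.83 and 9.80 CPM in MCF10AT1 and at 13.7, 12.4 and 14.6 CPM in MCF10Ca1a. The 3 lines did not overlap, and each was above the one before. Its log2 fold changes were 3.65 ± 0.12 in MCF10AT1 against MCF10A, 4.24 ± 0.12 in MCF10Ca1a against MCF10A and 0.58 ± 0.09 in MCF10Ca1a against MCF10AT1, with edgeR adjusted p at or under 3.8e-05. WNT7A (chr3:13816258-13880121, minus strand) took another course. It stood at 7.25, 6.58 and 6.39 CPM in MCF10A, at 5.49, 5.82 and 5.56 CPM in MCF10AT1 and at 20.3, 20.1 and 21.4 CPM in MCF10Ca1a. MCF10AT1 lay slightly under MCF10A (log2 fold change -0.26 ± 0.07, edgeR adjusted p = 0.0069) and MCF10Ca1a above both (1.61 ± 0.07 and 1.87 ± 0.07). The small step to MCF10AT1 was lost in limma on log2(TPM + 1) without a filter, where it was -0.24.

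WNT9A, a ligand best known from joint formation, stood at 3.03, 2.49 and 2.46 CPM in MCF10A, at 7.54, 7.33 and 6.94 CPM in MCF10AT1 and at 5.70, 4.55 and 5.58 CPM in MCF10Ca1a. It was highest in MCF10AT1, where the log2 fold change against MCF10A was 1.45 ± 0.11 (edgeR adjusted p = 7.8e-08), and MCF10Ca1a lay between the other lines without overlap. The drop from MCF10AT1 to MCF10Ca1a of -0.46 ± 0.11 was lost on the TPM scale, where it was -0.13 with a pseudocount of 1.

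WNT2B (chr1:112466541-112530165, plus strand), a beta-catenin-linked ligand, stood at 0.624, 0.695 and 0.802 CPM in MCF10A, at 0.465, 0.347 and 0.612 CPM in MCF10AT1 and at 5.39, 6.18 and 4.96 CPM in MCF10Ca1a. The 3 MCF10Ca1a libraries were above all others, with a log2 fold change of 2.96 ± 0.18 against MCF10A (edgeR adjusted p = 2.0e-09). Its lower level in MCF10AT1 than in MCF10A (-0.58 ± 0.21, edgeR adjusted p = 0.030) was lost in 10 of 21 alternatives. Among them were leaving out MCF10A replicate 2 (-0.60) or 3 (-0.48) and MCF10AT1 replicate 1 (-0.57) or 2 (-0.40).

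WNT10B, also a beta-catenin-linked ligand, was not called in any comparison. Its mean was 3.48 ± 0.29, 3.60 ± 0.24 and 3.44 ± 0.37 CPM (SD, n = 3) in MCF10A, MCF10AT1 and MCF10Ca1a, and its log2 fold changes lay between -0.07 and 0.05 with standard errors of 0.11 to 0.12. WNT10A was low, at 9 to 18 counts per library, and was called higher in MCF10AT1 (log2 fold change 0.78 ± 0.29) and in MCF10Ca1a (0.81 ± 0.32) than in MCF10A. Among the untested ligands, WNT2 had 0 counts in the 6 libraries of MCF10A and MCF10AT1 and 2, 1 and 9 counts in MCF10Ca1a. Against a floor of 3 counts per library, WNT2 was at least 2.49-fold higher in MCF10Ca1a than in MCF10A. Without the third MCF10Ca1a library no bound is left, since the other counts of WNT2 are under that floor. WNT3A had 2, 3 and 4 counts in MCF10A and 0 in the other 6 libraries.

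**Figure D2:**
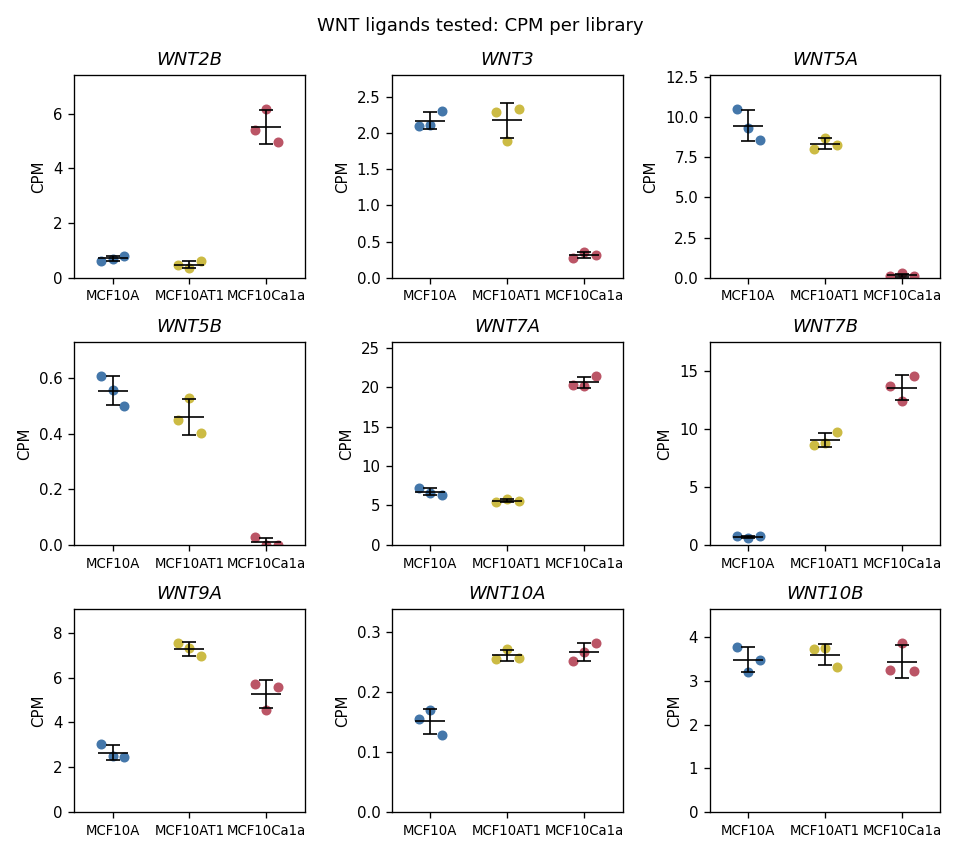
CPM (y axis, from 0, on a separate scale for each gene) of the 9 tested WNT ligands in each library of the 3 lines (x axis). Points are libraries, and horizontal marks with bars are the mean and SD of 3; WNT5A, WNT5B and WNT3 are near 0 in MCF10Ca1a, while WNT7A, WNT7B and WNT2B are highest there.

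Expressed per length, the ligands summed to 11.2 ± 1.2 TPM in MCF10A, 13.0 ± 0.30 TPM in MCF10AT1 and 18.1 ± 0.31 TPM in MCF10Ca1a (SD, n = 3), so the makeup differed more than the total. In MCF10A, WNT5A gave 34.3% ± 2.5 of the sum, followed by WNT7A with 20.4% ± 0.51 and WNT10B with 19.3% ± 1.7, and the last 2 overlapped between libraries. In MCF10AT1, WNT5A (21.7% ± 0.73) and WNT7B (20.1% ± 2.2) overlapped at the top, above WNT9A (17.0% ± 0.63) and WNT10B (15.3% ± 1.1). In MCF10Ca1a, WNT7A gave 42.1% ± 0.25 and WNT7B 25.7% ± 1.2, and WNT5A gave 0.325% ± 0.21.

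**Figure D3:**
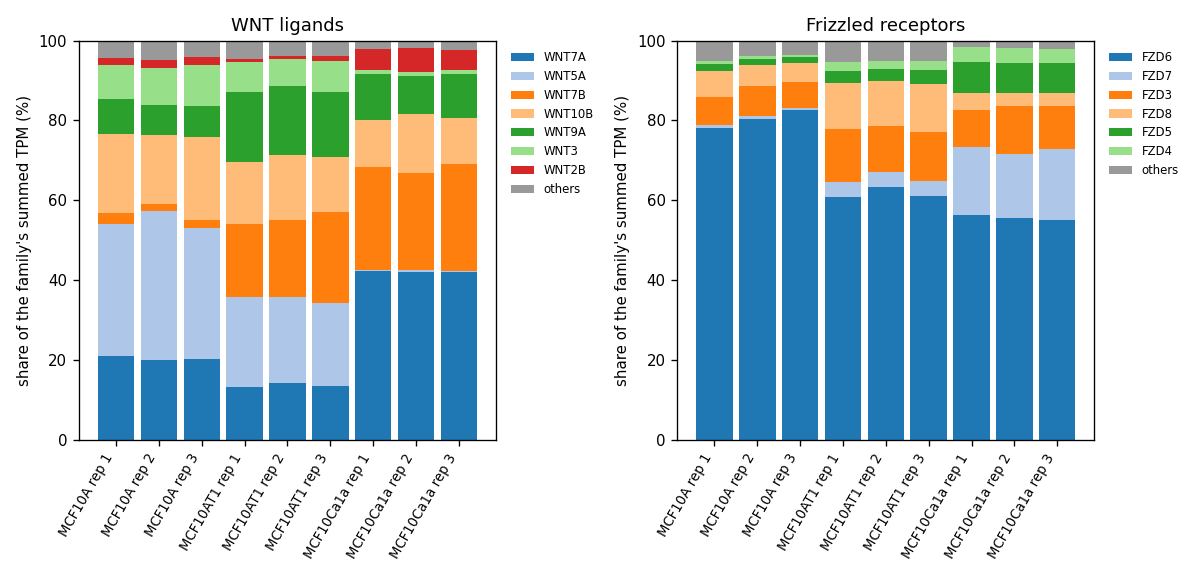
Share of the summed TPM (y axis, percent, stacked to 100) given by each WNT ligand (left) and each Frizzled receptor (right) in every library (x axis); members under 3% in every library are pooled as others. WNT5A fades to below 1% in the 3 MCF10Ca1a libraries, and FZD7 widens there to 16.0% to 17.8%.

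Among the Frizzled receptors, FZD6 was the most abundant in every line and the one that lost most in CPM, from a mean of 194 to 96.2 and 66.8 CPM. FZD7, FZD4 and FZD5 rose at both steps. FZD1, FZD2 and FZD8 ended lowest in MCF10Ca1a. Of the 9 receptors tested, 6 were called higher and 2 lower in MCF10AT1, and 3 higher and 6 lower in MCF10Ca1a, each against MCF10A, beside the shares of all genes given for the ligands (29.8% and 31.8%, then 39% and 41.9%).

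FZD7, a receptor linked to beta-catenin signalling in basal mammary cells, stood at 2.60, 2.56 and 1.82 CPM in MCF10A, at 8.31, 8.90 and 8.38 CPM in MCF10AT1 and at 29.8, 27.6 and 30.0 CPM in MCF10Ca1a. The lines did not overlap. Both steps were of a like size on the log2 scale, 1.88 ± 0.11 from MCF10A to MCF10AT1 and 1.77 ± 0.09 from MCF10AT1 to MCF10Ca1a (edgeR adjusted p = 3.8e-09 and 4.3e-10), which amounted to 12.6-fold from MCF10A to MCF10Ca1a.

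FZD4, the receptor of norrin as well as of WNT ligands, stood at 4.51, 3.68 and 3.11 CPM in MCF10A, at 8.44, 7.94 and 8.54 CPM in MCF10AT1 and at 11.9, 11.9 and 10.3 CPM in MCF10Ca1a. All MCF10A libraries were under all others, with log2 fold changes of 1.14 ± 0.12 in MCF10AT1 and 1.59 ± 0.12 in MCF10Ca1a. FZD5, a receptor for WNT7A among others, stood at 9.33, 8.05 and 8.18 CPM in MCF10A, at 11.1, 11.1 and 11.6 CPM in MCF10AT1 and at 21.2, 20.1 and 19.2 CPM in MCF10Ca1a. Its larger step was the one to MCF10Ca1a (0.84 ± 0.07 against MCF10AT1, edgeR adjusted p = 6.8e-08). The step to MCF10AT1 (0.41 ± 0.07) was lost in limma on log2(TPM + 1), where it was 0.18.

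FZD6, a receptor known for planar cell polarity and for restraining beta-catenin signalling, stood at 183, 197 and 204 CPM in MCF10A, at 95.9, 100 and 92.8 CPM in MCF10AT1 and at 69.0, 67.5 and 63.7 CPM in MCF10Ca1a. The 3 lines were separate, and the log2 fold change was -1.01 ± 0.06 to MCF10AT1 and a further -0.53 ± 0.06 to MCF10Ca1a (edgeR adjusted p = 3.0e-09 and 1.3e-06). FZD8, a receptor with high affinity for WNT ligands, stood at 15.4, 14.1 and 13.1 CPM in MCF10A, at 19.4, 19.6 and 20.1 CPM in MCF10AT1 and at 5.39, 4.19 and 4.26 CPM in MCF10Ca1a. It was highest in MCF10AT1 and fell by 2.09 ± 0.09 on the log2 scale from there to MCF10Ca1a (edgeR adjusted p = 1.1e-10). Its rise in MCF10AT1 of 0.47 ± 0.08 was lost in limma on log2(TPM + 1), where it was 0.26.

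FZD1 and FZD2 are close relatives of FZD7, and both went the other way. FZD1 stood at 9.67, 7.15 and 7.12 CPM in MCF10A, at 7.32, 6.73 and 6.67 CPM in MCF10AT1 and at 0.950, 0.624 and 0.874 CPM in MCF10Ca1a. MCF10A and MCF10AT1 overlapped (log2 fold change -0.21 ± 0.12, not called), and MCF10Ca1a was 9.71-fold below MCF10A (edgeR adjusted p = 4.1e-10). FZD2 stood at 7.92, 6.80 and 6.25 CPM, at 4.84, 4.48 and 4.51 CPM and at 1.70, 2.14 and 2.65 CPM in the same order of lines. Its lines did not overlap, with log2 fold changes of -0.60 ± 0.12 in MCF10AT1 and -1.69 ± 0.14 in MCF10Ca1a against MCF10A.

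FZD3, a polarity receptor, had means of 21.3 ± 0.81, 24.4 ± 1.7 and 14.7 ± 0.63 CPM in MCF10A, MCF10AT1 and MCF10Ca1a (SD, n = 3). It was called higher in MCF10AT1 (log2 fold change 0.19 ± 0.06), and lower in MCF10Ca1a (-0.54 ± 0.07), both against MCF10A. In TPM its means were 9.53 ± 0.82, 9.72 ± 0.92 and 7.90 ± 1.1, and the libraries of all 3 lines overlapped. FZD10, added after its values were seen, had 23, 23 and 17 counts in the MCF10A libraries, 71, 65 and 55 in those of MCF10AT1, and 0, 1 and 0 in those of MCF10Ca1a. It was 3.06-fold higher in MCF10AT1 than in MCF10A (edgeR adjusted p = 7.2e-05). The ratio of MCF10AT1 to MCF10Ca1a was 103 per unit of depth, with a 95% exact interval of 18.2 to 4078 that covers counting error only.

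**Figure D4:**
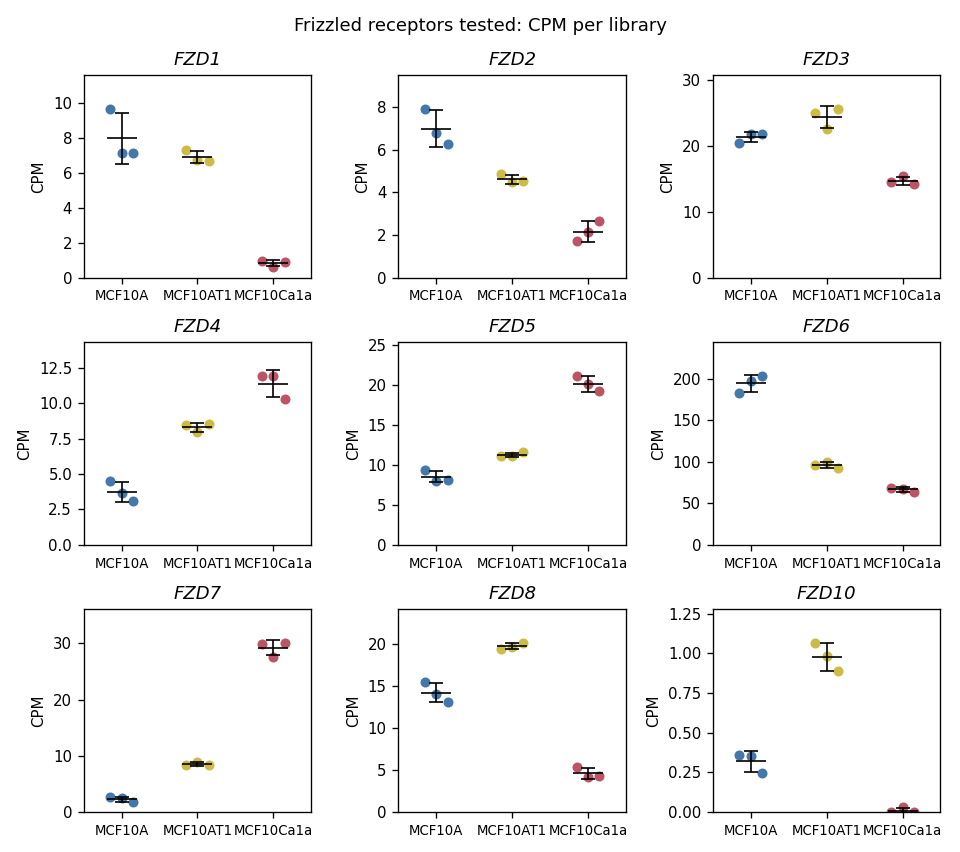
CPM (y axis, from 0, on a separate scale for each gene) of the 9 tested Frizzled receptors in each library of the 3 lines (x axis), with the mean and SD of 3 as horizontal marks with bars. FZD4, FZD5 and FZD7 climb from MCF10A to MCF10Ca1a, FZD6 and FZD2 descend, and FZD8, FZD3 and FZD10 are highest in MCF10AT1.

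In TPM the receptors summed to 136 ± 3.5 in MCF10A, 78.9 ± 2.9 in MCF10AT1 and 73.0 ± 2.2 in MCF10Ca1a (SD, n = 3). FZD6 gave 80.3% ± 2.2, 61.8% ± 1.3 and 55.6% ± 0.62 of these sums. The second place passed from FZD3 (7.02% ± 0.46) in MCF10A, to FZD3 (12.3% ± 0.93) and FZD8 (11.6% ± 0.42) in MCF10AT1, which overlapped, to FZD7 (16.9% ± 0.91) in MCF10Ca1a.

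The co-receptors LRP5 and LRP6, which Frizzled needs for the beta-catenin branch, were both called higher in MCF10Ca1a than in either other line and in neither direction in MCF10AT1 against MCF10A. LRP6 (chr12:12116025-12267012, minus strand) stood at 40.1, 35.0 and 32.3 CPM in MCF10A, at 34.0, 32.8 and 34.9 CPM in MCF10AT1 and at 82.5, 81.8 and 77.7 CPM in MCF10Ca1a. MCF10A and MCF10AT1 overlapped, and MCF10Ca1a was 2.25-fold above MCF10A (log2 fold change 1.17 ± 0.07, edgeR adjusted p = 1.6e-09). LRP5 had means of 79.7 ± 12, 74.2 ± 0.59 and 101 ± 3.9 CPM (SD, n = 3), with a smaller log2 fold change of 0.34 ± 0.08 in MCF10Ca1a against MCF10A.

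The secreted inhibitors were carried by a pair of genes, since SFRP1 and DKK1 made up more than 99% of the TPM of their families in every library. SFRP1, which sequesters WNT ligands, stood at 618, 533 and 476 CPM in MCF10A, at 391, 393 and 368 CPM in MCF10AT1 and at 125, 123 and 130 CPM in MCF10Ca1a. The lines did not overlap, and SFRP1 fell by 0.50 ± 0.08 on the log2 scale to MCF10AT1 and by 2.11 ± 0.08 to MCF10Ca1a against MCF10A, the latter a 4.30-fold decrease (edgeR adjusted p = 2.0e-11). DKK1 (chr10:52314296-52318042, plus strand), which blocks LRP5 and LRP6 and is itself a beta-catenin target, stood at 84.8, 85.6 and 88.4 CPM in MCF10A, at 194, 197 and 183 CPM in MCF10AT1 and at 122, 128 and 125 CPM in MCF10Ca1a. It was highest in MCF10AT1, at 2.22-fold above MCF10A (log2 fold change 1.15 ± 0.05, edgeR adjusted p = 2.5e-10), and MCF10Ca1a lay between the lines without overlap.

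By level, SFRP1 was above DKK1 in MCF10A (188 ± 37 against 123 ± 3.6 TPM) and below it in MCF10AT1 (119 ± 5.8 against 237 ± 15 TPM) and in MCF10Ca1a (47.1 ± 0.84 against 178 ± 7.3 TPM; SD, n = 3). The ranges of the 2 genes did not overlap in any of the lines. DKK2, an inhibitor or activator depending on its partners, had 11, 10 and 24 counts in MCF10A and 0 in the other 6 libraries. Against a floor of 3 counts per library, DKK2 was at least 4.83-fold lower in MCF10AT1 and at least 2.60-fold lower in MCF10Ca1a, whose libraries were shallower. DKK3, a divergent member of the family, stayed at or under 0.258 CPM and was called lower in MCF10Ca1a than in MCF10A (log2 fold change -2.06 ± 0.61).

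The receptor ligases moved little. RNF43 was not called in any comparison, with means of 17.0 ± 1.8, 18.1 ± 0.85 and 17.4 ± 0.86 CPM (SD, n = 3) and log2 fold changes between -0.05 and 0.09, each with a standard error of 0.08. On the TPM scale its mean was 6.08 ± 1.4, 5.73 ± 0.51 and 7.77 ± 0.62. ZNRF3 was called lower in MCF10Ca1a than in MCF10A (-0.48 ± 0.10) and than in MCF10AT1 (-0.31 ± 0.10), where the TPM means of 2.98 ± 0.19 and 2.99 ± 0.16 were almost equal.

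AXIN1, the scaffold of the complex that marks beta-catenin, had means of 45.5 ± 4.4, 40.0 ± 0.40 and 63.8 ± 2.3 CPM (SD, n = 3) and was called higher in MCF10Ca1a than in MCF10A (log2 fold change 0.49 ± 0.06, edgeR adjusted p = 6.8e-06). In MCF10AT1 it was called slightly lower than in MCF10A (-0.19 ± 0.06, edgeR adjusted p = 0.021). AXIN2, its paralog and a widely used readout of beta-catenin activity, was nearly absent. AXIN2 had 4, 5 and 10 counts in the MCF10A libraries, 9, 11 and 10 in those of MCF10AT1, and 0, 0 and 1 in those of MCF10Ca1a. The ratio of MCF10AT1 to MCF10Ca1a was 16.1 per unit of depth (95% exact interval 2.68 to 658, counting error only), and MCF10A and MCF10AT1 overlapped.

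The nuclear factors TCF7 and LEF1, paralogs that bind the same DNA motif, moved in opposite directions. TCF7 (chr5:134114711-134151865, plus strand) stood at 2.03, 1.96 and 1.81 CPM in MCF10A, at 13.6, 12.8 and 14.0 CPM in MCF10AT1 and at 18.9, 18.7 and 19.2 CPM in MCF10Ca1a. The lines did not overlap, and TCF7 was 6.98-fold higher in MCF10AT1 and 9.80-fold higher in MCF10Ca1a than in MCF10A (edgeR adjusted p = 1.8e-12 and 1.2e-13). LEF1, just under the level set for genes described library by library and added after its values were seen, stood at 5.66, 4.64 and 4.43 CPM in MCF10A, at 2.82, 2.99 and 2.18 CPM in MCF10AT1 and at 0.615, 0.565 and 0.536 CPM in MCF10Ca1a. Its lines did not overlap either, and the log2 fold change was -0.88 ± 0.14 in MCF10AT1 and -3.10 ± 0.18 in MCF10Ca1a against MCF10A.

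Set beside the other factors of the family, TCF7L2 and TCF7L1, TCF7 gave 5.97% ± 0.79 of their summed TPM in MCF10A, 29.4% ± 1.5 in MCF10AT1 and 39.5% ± 1.9 in MCF10Ca1a (SD, n = 3). LEF1 gave 20.1% ± 2.5, 7.77% ± 1.1 and 3.08% ± 1.7 in the same lines. TCF7L2 remained the largest contributor, with 67.7% ± 3.2, 58.1% ± 2.1 and 56.9% ± 3.2. TCF7L1, mostly a repressor, dropped from 6.21% ± 0.62 to 4.72% ± 0.44 and 0.547% ± 0.20.

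**Figure D5:**
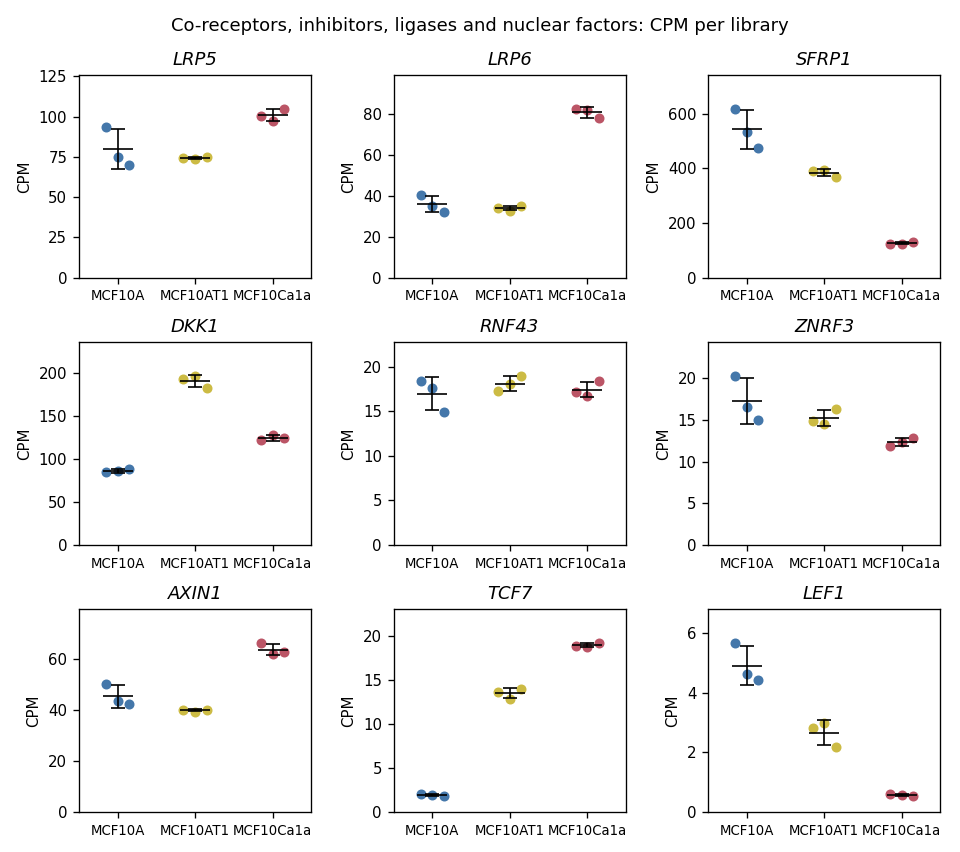
CPM (y axis, from 0, on a separate scale for each gene) of the co-receptors LRP5 and LRP6, the inhibitors SFRP1 and DKK1, the ligases RNF43 and ZNRF3, the scaffold AXIN1 and the nuclear factors TCF7 and LEF1 in each library of the 3 lines (x axis), with the mean and SD of 3. SFRP1 and LEF1 descend from line to line, TCF7 climbs, and DKK1 is highest in MCF10AT1.

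The transcript tables were used to ask whether members changed in the share of their transcripts, with limma on the log2 ratio of each transcript to the rest of its gene and a Simes p per gene, adjusted by Benjamini-Hochberg over the 9343 genes tested. Of the members, 10 had at least 2 transcripts abundant enough. In MCF10AT1 against MCF10A none of them was called with this limma test, against 12.3% of all genes tested, and 1 had an unadjusted p under 0.05. In MCF10Ca1a against MCF10A, 5 were called (AXIN1, DKK1, LEF1, LRP6 and WNT2B), against 52.2%, and in MCF10Ca1a against MCF10AT1, 3 were called (AXIN1, LEF1 and WNT2B), against 45.1%. The members' shares were thus at or below the background. How surely reads were assigned to one transcript or another did not enter the test.

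WNT2B showed the clearest change. Its transcript WNT2B-201, which starts at the end of the printed window, stood at 0.368, 0.408 and 0.348 CPM in the MCF10A libraries, 0.235, 0.167 and 0.256 CPM in those of MCF10AT1, and 0.642, 0.511 and 0.742 CPM in those of MCF10Ca1a, on 11.1 to 26.4 estimated counts per library. The sum of WNT2B-202 and WNT2B-203, which start farther downstream (391 and 372 codons, against 299 in WNT2B-201), stood at 0.256, 0.287 and 0.454 CPM, at 0.229, 0.180 and 0.356 CPM, and at 4.75, 5.67 and 4.22 CPM in the same order of lines. Against MCF10A, the mean in MCF10Ca1a was 1.69 times as high for WNT2B-201 and 14.7 times as high for the sum of WNT2B-202 and WNT2B-203, without overlap in either case; these levels were not tested singly. Most of the difference in WNT2B level thus lay in WNT2B-202 and WNT2B-203, and the share of WNT2B-201 went from 53.7% ± 8.8 in MCF10A and 46.9% ± 4.6 in MCF10AT1 to 11.7% ± 3.3 in MCF10Ca1a (limma share test, adjusted p = 0.00049 and 0.0012). Their own shares could not be separated, because the estimates swapped between WNT2B-202 and WNT2B-203 from library to library.

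AXIN1-201, which codes for 862 amino acids, gave 16.2%, 24.5% and 17.4% of the gene's counts in the MCF10A libraries, 20.4%, 15.1% and 19.3% in those of MCF10AT1, and 32.0%, 38.8% and 34.5% in MCF10Ca1a. The shorter AXIN1-202, of 826 amino acids, gave a mean of 77.3% ± 5.8, 77.6% ± 2.9 and 59.1% ± 4.0. The share of the longer form was higher in all MCF10Ca1a libraries than in any other (limma share test, adjusted p = 0.0053 against MCF10A and 0.0066 against MCF10AT1).

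LRP6-203, annotated as a target of nonsense-mediated decay, gave 1.36%, 0% and 4.02% of LRP6 counts in the MCF10A libraries, 1.69%, 11.9% and 9.10% in those of MCF10AT1, and 28.5%, 26.0% and 20.6% in MCF10Ca1a. Counts of the full-length LRP6-201 were 2511, 2264 and 2148 in MCF10A and 2104, 2038 and 2185 in MCF10Ca1a, whose libraries held fewer reads in all. In TPM, LRP6-201 stood at 6.74, 5.64 and 4.73 in MCF10A and at 10.4, 10.6 and 10.8 in MCF10Ca1a. Its level was thus higher in MCF10Ca1a as well, though this was not tested singly. The LRP6 call (adjusted p = 0.025 in the limma share test) was lost when any of the 3 MCF10Ca1a libraries was left out.

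DKK1-203, a transcript without a coding region, gave 8.83% ± 0.57 of DKK1 counts in MCF10A and 5.77% ± 0.80 in MCF10Ca1a (SD, n = 3). The LEF1 call rested on 22, 19 and 19 counts of the gene in MCF10Ca1a, where the share given to LEF1-201 was 0%, 0% and 100%, and LEF1 was not called when shares were taken from TPM. TCF7 was not called: TCF7-201, which codes for 384 amino acids, and TCF7-203, which starts downstream and codes for 269, varied between replicates, with TCF7-201 giving 97.7%, 47.0% and 0% in the 3 MCF10A libraries. Which of the forms made up the higher TCF7 level could therefore not be read from these estimates.

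Of the other genes of the pathway, the enzyme that lipidates WNT ligands, PORCN, stood out in MCF10Ca1a. PORCN stood at 16.8, 16.5 and 16.9 CPM in MCF10A, at 17.9, 16.5 and 16.9 CPM in MCF10AT1 and at 85.1, 84.8 and 88.4 CPM in MCF10Ca1a, a log2 fold change of 2.36 against MCF10A (edgeR adjusted p = 5.5e-14). Of the 8 tested genes of WNT secretion and removal, 1 was higher and 3 were lower in MCF10AT1, and 3 were higher and 4 lower in MCF10Ca1a, each against MCF10A, against 29.8% and 31.8% of all genes tested in MCF10AT1 and 39% and 41.9% in MCF10Ca1a. TRABD2A, a protease that inactivates WNT ligands, was lowest in MCF10AT1 (log2 fold change -1.61) and also lower in MCF10Ca1a (-1.14). Among called genes with at least 1 CPM in the higher line, SNX3 of the retromer fell most from MCF10AT1 to MCF10Ca1a (-0.66). The cargo receptor TMED2 rose most in MCF10AT1 (0.19). TRABD2B, under that level, was called lower from MCF10AT1 to MCF10Ca1a (-3.87), where its libraries held 1, 0 and 0 counts. Of the R-spondins, which counteract RNF43 and ZNRF3, and their LGR receptors, LGR4 alone of 7 was tested, at 48.1, 61.5 and 47.2 CPM.

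Of 16 other secreted or surface modulators, 9 were tested, and 4 were higher and 4 lower in MCF10Ca1a than in MCF10A, against 39% and 41.9% of all genes tested. Among called genes with at least 1 CPM in the higher line, TSPAN12 rose most and the proteoglycan GPC4 fell most (log2 fold change -2.48). TSPAN12, a partner of FZD4, went from 0.025 to 1.53 CPM (5.81). Under that level, SOSTDC1 was called higher (6.42, from 0 to 0.191 CPM) and APCDD1 lower (-8.05, from 0.594 to 0 CPM). KREMEN1, a DKK1 receptor, fell by 1.09 on the log2 scale in MCF10AT1, while KREMEN2 rose by 1.52 there.

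Of the 17 genes of the cytoplasmic chain to beta-catenin, all tested, 4 were higher and 4 lower in MCF10AT1 against MCF10A, and 13 were higher and 3 lower in MCF10Ca1a against MCF10A, where 29.8% and 31.8%, and then 39% and 41.9%, of all genes tested were higher and lower. Rankings in this paragraph cover called genes with at least 1 CPM in the higher line. USP34, a deubiquitinase that acts on AXIN, rose most in MCF10Ca1a (log2 fold change 1.28), and CTNNB1, the beta-catenin gene itself, fell most (-0.38). In MCF10AT1 the kinase GSK3A rose most (0.39) and DVL3, which relays the receptor signal, fell most (-0.51), though DVL3 was above MCF10A in MCF10Ca1a (0.69). The median log2 fold change of the 17 in MCF10Ca1a against MCF10A was 0.45, beside -0.05 over all genes tested. Of 14 nuclear partners, 6 were higher and 6 lower in MCF10Ca1a than in MCF10A (all genes tested, 39% and 41.9%), with the co-activator BCL9 at 1.53 and TCF7L1 at -2.84. In MCF10AT1 the co-repressor TLE1 rose most (0.62) and the co-activator PYGO2 fell most (-0.58).

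Of 17 tested receptors and polarity genes of the beta-catenin-independent branch, 6 were higher and 10 lower in MCF10AT1, and 4 were higher and 12 lower in MCF10Ca1a, each against MCF10A. The shares of all genes tested were 29.8% higher and 31.8% lower in MCF10AT1 and 39% and 41.9% in MCF10Ca1a. Their median log2 fold change in MCF10Ca1a was -1.53, beside -0.05 over all genes tested. The rankings that follow cover called genes with at least 1 CPM in the higher line. VANGL2, a core polarity protein, fell most, from 2.04 to 0.028 CPM (log2 fold change -6.05). ROR1, a WNT5A receptor, went the other way, from 9.40 to 26.7 CPM (1.51), and PRICKLE1 rose most in MCF10AT1 (1.99). FUZ, a polarity effector needed for cilia, fell from 4.02 CPM in MCF10A to 0.219 CPM in MCF10AT1 (-4.18). From MCF10AT1 to MCF10Ca1a, CELSR3 rose most (0.69) and PRICKLE2 fell most (-3.10).

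Of 18 genes often used as beta-catenin targets, 13 were tested, and 6 were higher and 3 lower in MCF10AT1, and 3 were higher and 6 lower in MCF10Ca1a, each against MCF10A, beside 29.8% and 31.8%, and 39% and 41.9%, of all genes tested. Among called genes with at least 1 CPM in the higher line, SOX9, a transcription factor, rose most. It went from 7.19 CPM in MCF10A to 117 CPM in MCF10AT1 and 227 CPM in MCF10Ca1a. The protease gene ADAMTS7 fell most in MCF10Ca1a (log2 fold change -5.21), and TCF4 fell most in MCF10AT1 (-1.17). APCDD1, under that level at 0.594 CPM in MCF10A, was called lower in MCF10AT1 (-3.96) and in MCF10Ca1a (-8.05). Its MCF10A libraries held 44, 32 and 42 counts, those of MCF10AT1 1, 2 and 4, and those of MCF10Ca1a 0. MYC, CCND1, CD44 and SOX9 also answer to other pathways. LGR5, NOTUM, NKD2, SP5 and ASCL2 were too low to test.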

How the data were processed

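Polyadenylated RNA of MCF10A, MCF10AT1 and MCF10Ca1a was sequenced from stranded libraries, per the labels. Salmon and hg38 are named in the submitters' processing notes; their roles, the annotation and the software versions are not given in the sources used here. The authors deposited estimated counts per gene (plain, length-scaled and scaled) and per transcript, and TPM values per gene and per transcript. Columns were matched to libraries by name and label.

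Estimated counts were rounded. The filter filterByExpr, set to a count of 10 and a total of 15 and grouped by line, kept 17910 of 62666 genes. The test was edgeR 4.0.16 (R 4.3.3), quasi-likelihood with TMM, all 9 libraries in 1 fit, Benjamini-Hochberg at 0.05. Standard errors were derived by dividing the size of the log2 fold change by the square root of F. Transcript shares were tested with limma 3.58.1 on the log2 ratio to the rest of the gene, for transcripts with a mean of at least 20 counts and 5% of their gene in 1 line. Both tests and DESeq2 1.42.0 were tested on simulated data. There the p-values of unchanged genes were calibrated in edgeR, the sole test for which this was computed. However, edgeR and DESeq2 called more false genes than the nominal share, fewer of them in edgeR when every gene followed the dispersion trend. The percentages called over all genes, used as background, may therefore be somewhat high. In the deposited counts the members' dispersions were at most 1.79 times the trend. Genes given library by library had an adjusted p under 0.05, a 2-fold change or more in 1 comparison and at least 5 CPM in 1 line; of each other pathway list, the called genes that rose and fell most in a comparison, with at least 1 CPM in the higher line, were named. Floors are 3 counts per library. Intervals and floors cover counting error only. Positions come from GENCODE 29 (GRCh38) and upstream windows from RefSeq (GRCh38.p14). One gene of the marker lists is not reported here. The members and all lists were chosen with earlier results of these data known.

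Alternatives were DESeq2 size factors and Wald test, no low-count filter, both scaled count tables, a replicate block, a minimum change (glmTreat), thinning, only the lines compared, limma on log2(TPM + 1 or 0.1), and each library left out.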

Additional observations from a re-analysis of the deposited data

How the results depend on the processing

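Of 1008 values (48 log2 fold changes of 16 members under 21 alternatives), 968 kept their side of the threshold. Another 37 were no longer called, 3 were newly called, and 0 changed direction with a call in either setting. A change of direction between values not called was not counted, as for LRP6 in MCF10AT1 against MCF10A. Its log2 fold change was -0.078, and with a library left out it reached 0.013. Demanding a log2 change of more than 1 (glmTreat) left 6 members called in MCF10AT1 against MCF10A, 18 in MCF10Ca1a against MCF10A and 12 in MCF10Ca1a against MCF10AT1, of 28 tested, beside 11.1%, 34.9% and 28.7% of all genes; it asks for a larger change by construction. With each library left out in turn, the members called ranged from 15 to 19 in MCF10AT1 against MCF10A, from 26 to 28 in MCF10Ca1a against MCF10A and from 23 to 25 in MCF10Ca1a against MCF10AT1, of 29 or 30 members tested, beside 54.6% to 60.6%, 77% to 81% and 74.2% to 79.8% of all genes. Limma on log2(TPM + 1) moved the median of all genes tested by -0.07, 0.11 and 0.17 in the 3 comparisons, to -0.07, 0.06 and 0.13, so changes on that scale are relative to these shifts. For transcript shares, the members called ranged from 0 to 1, 4 to 6 and 3 to 5 when each library was left out; without MCF10AT1 replicate 1 WNT3 was added in all 3 comparisons and TCF7 in the last, where the count was 5. Keeping transcripts with a mean of at least 5 counts gave 1 member (WNT3) in MCF10AT1 against MCF10A. Deviations of same-numbered libraries from their line means correlated between -0.060 and 0.045, so the replicate numbers did not pair the libraries, and the replicate block is given here alone: it called 17, 25 and 24 members for differential expression, 0, 4 and 3 for transcript shares, and 0 of 9 libraries correlated best with its own number. The causes were not tested. The 17 untested members had at most 24 counts in any library, and folds of the genes near 0 in MCF10Ca1a carry wide intervals. The part of depth in this was not tested.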

Other observations

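Several members lie side by side in the genome (GENCODE 29, GRCh38), and in each such pair of ligands 1 had more counts than the other, which had at most 4, in every library. WNT10B lies 6690 bases from WNT1 on chromosome 12; WNT10B had 114 to 249 counts per library and WNT1 had 0. WNT3 lies 47 bases from WNT9B on chromosome 17, on the opposite strand; WNT3 had 10 to 161 counts and WNT9B at most 1. WNT9A lies 59153 bases from WNT3A on chromosome 1; WNT9A had 153 to 503 counts and WNT3A at most 4. WNT10A lies 6130 bases from WNT6 on chromosome 2; WNT10A had 9 to 18 counts and WNT6 had 0. Of all 19 ligands, 10 had too few counts to be tested. No test was made of these pairs, which were noticed in the data.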
